A study of Mus musculus with 19 samples.

Results

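The troponin genes are 8 of the 55740 genes listed across the deposited tables, chosen by symbol as the complete set of cardiac, slow and fast isoforms: *Tnnc1*, *Tnnc2*, *Tnni1*, *Tnni2*, *Tnni3*, *Tnnt1*, *Tnnt2* and *Tnnt3*. All 8 are listed for the 7 tissues and for brown adipose tissue (BAT), and 7 are listed for inguinal white adipose tissue (iWAT), whose table leaves out *Tnni1*. RNA-Seq was performed on 1 library each of heart, brain, liver, small intestine, tibialis anterior (TA) muscle and white and brown fat of chow-fed wild-type C57BL/6J mice, and on iWAT and BAT of wild-type (WT) and MCK-Musclin mice, 3 libraries per genotype and tissue, 19 libraries in all. MCK-Musclin mice carry the coding sequence of Musclin, a hormone released by skeletal muscle and encoded by *Ostn*, under the promoter of muscle creatine kinase (MCK), which is active in striated muscle, and were made by injection into the pronucleus and backcrossed to C57BL/6J. Several founder lines were made, and which of them gave these libraries is not given in the sources used here. Both genotypes of the iWAT and BAT comparisons were chow-fed males, 5 months old, that had all been held at 8 °C for 1 week, so no library of these mice at room temperature enters the comparison.

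Troponin is the calcium switch of the thin filament in striated muscle. Troponin C binds calcium, troponin I holds back the interaction of actin and myosin until calcium is bound, and troponin T fastens the complex to tropomyosin. Each subunit has its own genes for fast fibres (*Tnnc2*, *Tnni2*, *Tnnt3*) and slow fibres (*Tnni1*, *Tnnt1*), while the heart uses *Tnni3* and *Tnnt2*, and *Tnnc1* serves slow fibres and heart alike. Fat, liver, brain and intestine hold no sarcomeres of their own.

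The members lie as 3 neighbouring pairs and 2 single genes in the GRCm38 assembly, all of them protein-coding. *Tnni1* (chr1:135779434-135810989) and *Tnnt2* (chr1:135836354-135852260) are 25364 bases apart on the plus strand, with *Lad1* between them. *Tnnt1* (chr7:4504570-4516382) and *Tnni3* (chr7:4518305-4524229) are 1922 bases apart on the minus strand with no coding gene between them. *Tnni2* (chr7:142441808-142444410) and *Tnnt3* (chr7:142498836-142516009), both on the plus strand, are 54425 bases apart and flank *Lsp1*. *Tnnc1* (chr14:31208312-31211729, plus strand) and *Tnnc2* (chr2:164777161-164779967, minus strand) stand alone. Each pair joins a troponin I gene with a troponin T gene, of slow and cardiac form in the first and second pair and of fast form in the third.

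Some of the members share exonic sequence with other genes, and the authors' alignment did not use strand. *Tnnc2* shares 592 of its 800 exonic bases with *Ube2c*, a cell-cycle gene on the opposite strand, so reads of either could have been given to the other. *Tnni3* shares 86 of its 2063 exonic bases with *Dnaaf3*, which encodes an assembly factor for ciliary dynein and lies on the same strand. Among themselves the members are well apart, since the longest identical stretch between transcripts of any pair within a subunit was 22 bases (*Tnni1* and *Tnni2*) and the shortest was 14 bases (*Tnni2* and *Tnni3*).

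The sequence before the start of transcription is shown for the 6 members with an entry in the RefSeq table of promoters (GRCm38.p6), because these members fall into 3 patterns across the tissues: high in TA muscle (*Tnnc2*), high in heart (*Tnnc1*, *Tnni3*, *Tnnt2*), and low throughout (*Tnni1*, *Tnnt1*). *Tnni2* and *Tnnt3* are named only. The 150 bases before the first start that RefSeq lists, which can lie inside the wider span of the gene given above, are shown 5′ to 3′ on the strand of the gene, and capitals mark matches on either strand to CANNTG (the E-box bound by myogenic factors such as MyoD), CATTCC (the core of the M-CAT element), TAAAAATA (a core bound by MEF2 factors) and TATAAA (the TATA box).
*Tnnc2* (chr2:164779735-164779884, minus strand): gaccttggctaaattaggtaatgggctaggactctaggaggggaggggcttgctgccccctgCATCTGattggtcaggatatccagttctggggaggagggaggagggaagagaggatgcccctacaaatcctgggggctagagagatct
*Tnnc1* (chr14:31208162-31208311, plus strand): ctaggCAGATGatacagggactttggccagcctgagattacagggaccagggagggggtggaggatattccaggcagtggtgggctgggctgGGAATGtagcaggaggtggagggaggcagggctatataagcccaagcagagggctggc
*Tnni3* (chr7:4522529-4522678, minus strand): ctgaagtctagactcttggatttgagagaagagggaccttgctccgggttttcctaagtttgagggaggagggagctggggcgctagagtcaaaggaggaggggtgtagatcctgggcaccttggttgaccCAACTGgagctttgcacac
*Tnnt2* (chr1:135836184-135836333, plus strand): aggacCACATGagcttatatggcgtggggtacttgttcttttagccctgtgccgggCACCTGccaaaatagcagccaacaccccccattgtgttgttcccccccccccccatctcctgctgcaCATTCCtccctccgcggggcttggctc
*Tnni1* (chr1:135799271-135799420, plus strand): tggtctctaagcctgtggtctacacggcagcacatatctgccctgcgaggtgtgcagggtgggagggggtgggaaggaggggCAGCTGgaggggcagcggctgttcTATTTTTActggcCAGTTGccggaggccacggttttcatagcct
*Tnnt1* (chr7:4515976-4516125, minus strand): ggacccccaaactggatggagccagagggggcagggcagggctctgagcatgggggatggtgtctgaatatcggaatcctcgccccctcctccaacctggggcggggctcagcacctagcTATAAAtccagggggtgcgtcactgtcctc

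An E-box occurred within the 250 bases before the first start of all 6 of these genes (for *Tnnt1* before the stretch shown), but also in 66.2% of the 32851 windows of the same length in the RefSeq table. The M-CAT core was found in *Tnnc1* and *Tnnt2* and in 12.6% of all windows. *Tnni1* alone among the 6 held the MEF2 core, which was present in 2.45% of all windows, and *Tnnt1* alone held the exact letters TATAAA, present in 12.4%. Variants of the TATA box were not searched for, such as the tatataag near the end of the *Tnnc1* stretch shown. No match overlapped a match to another of these motifs in the bases shown. These are matches of letters, with no measurement of binding in the data.

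Across the 7 tissues the troponin genes separated by striated muscle type. *Tnnc2*, *Tnni2* and *Tnnt3* had their highest level in TA muscle, and *Tnnc1*, *Tnni3* and *Tnnt2* had theirs in heart. These 6 of 8 members had a level in TA muscle or heart at least 10 times that of the highest of the other 5 tissues (with 1 FPKM added to both), a mark reached by 1.14% of the 18327 genes with an FPKM of at least 1 in any tissue. FPKM is the number of sequenced fragments of a gene divided by its exonic length and by the size of the library, so that levels can be set side by side between genes. With 1 library per tissue there is no spread between replicates and no test, and neighbours in the order of tissues cannot be told apart from variation between libraries.

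**Figure D1:**
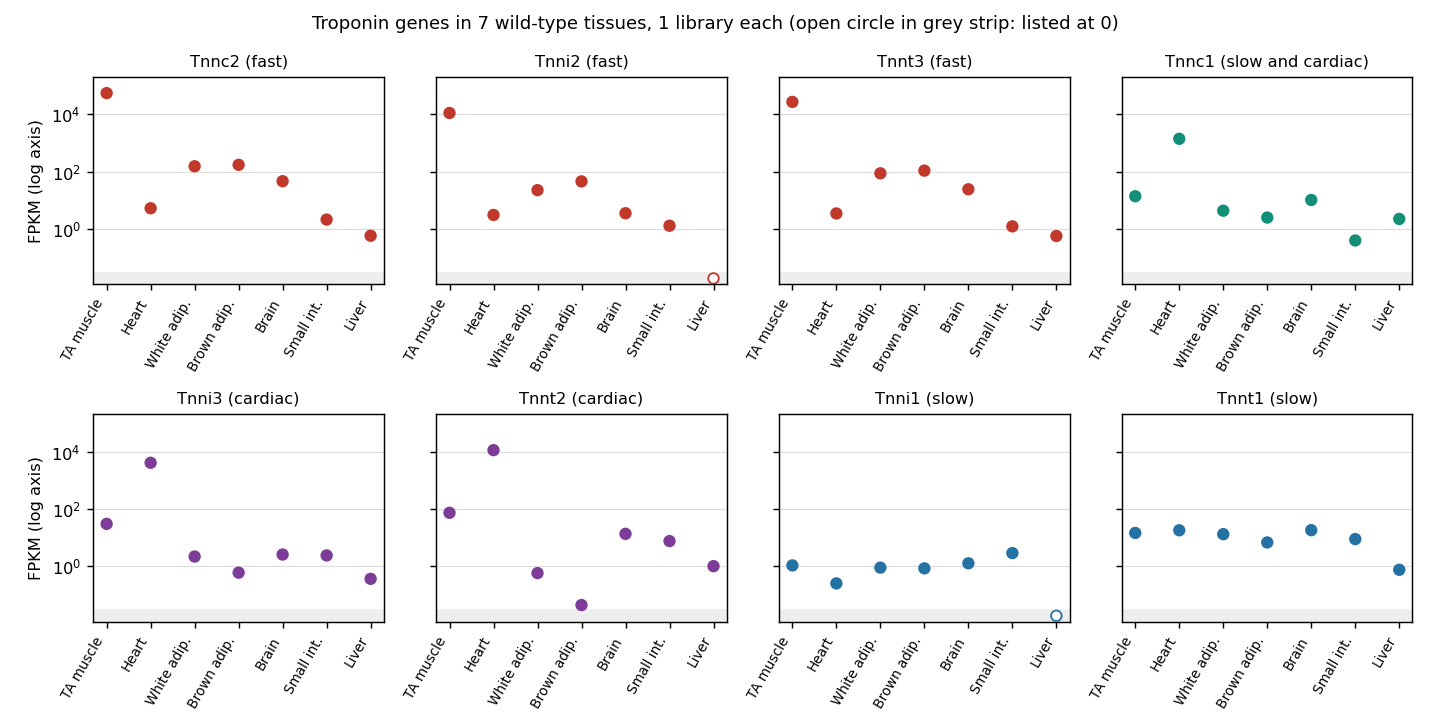
FPKM of the 8 troponin genes (log axis) in the 7 wild-type tissues, 1 point per library, coloured by fast, slow, cardiac, or slow and cardiac form. The 3 fast genes stand far above the other tissues in TA muscle, the 3 cardiac genes in heart, and *Tnni1* and *Tnnt1* show no such peak.

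The fast genes were among the most abundant transcripts of TA muscle. *Tnnc2*, fast troponin C, was the first-ranked gene of the library with 55389 FPKM, *Tnnt3*, fast troponin T, ranked at 4 with 27391 FPKM, and *Tnni2*, fast troponin I, ranked at 15 with 11204 FPKM. The 8 genes together made up 16.2% of the summed FPKM of the TA muscle library, which lowers the FPKM of every other gene in it. In heart the cardiac genes reached 11404 FPKM for *Tnnt2* (cardiac troponin T, rank 13), 4138 FPKM for *Tnni3* (cardiac troponin I, rank 24) and 1411 FPKM for *Tnnc1* (slow and cardiac troponin C, rank 36). All 8 genes made up 2.51% of the summed FPKM of the heart library.

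After TA muscle, the next highest tissue for each fast gene in the FPKM as deposited was brown adipose, and white adipose came after it. *Tnnc2* was at 175 FPKM in brown adipose, 155 FPKM in white adipose, 46.9 FPKM in brain, 5.34 FPKM in heart, 2.15 FPKM in small intestine and 0.586 FPKM in liver. *Tnnt3* followed the same order, with 109 FPKM in brown adipose, 88.2 FPKM in white adipose, 24.5 FPKM in brain, 3.51 FPKM in heart, 1.24 FPKM in small intestine and 0.575 FPKM in liver. *Tnni2* was at 46.1 FPKM in brown adipose, 22.8 FPKM in white adipose, 3.58 FPKM in brain, 3.12 FPKM in heart, 1.31 FPKM in small intestine and was listed at 0 in liver. The heart, a striated muscle, thus held less fast troponin than either fat. For *Tnnc2* in small intestine the overlapping *Ube2c* was at 84.4 FPKM, so the low *Tnnc2* value there is uncertain.

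In the FPKM as deposited, the cardiac genes were next highest in TA muscle and lower still in the other tissues. *Tnnt2* was at 74.4 FPKM in TA muscle, 13.7 FPKM in brain, 7.68 FPKM in small intestine, 1.02 FPKM in liver, 0.586 FPKM in white adipose and 0.0451 FPKM in brown adipose. *Tnni3* was at 30.6 FPKM in TA muscle and between 0.370 and 2.61 FPKM in the other 5 tissues. *Tnnc1* was at 14.0 FPKM in TA muscle, 10.4 FPKM in brain and between 0.401 and 4.38 FPKM elsewhere. Brown adipose, next to TA muscle in fast troponin as deposited, was the lowest of the 7 tissues in *Tnnt2*.

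The slow genes had no peak in striated muscle. *Tnnt1*, slow troponin T, was at 18.4 FPKM in brain, 18.3 FPKM in heart, 14.7 FPKM in TA muscle, 13.4 FPKM in white adipose, 9.01 FPKM in small intestine, 6.87 FPKM in brown adipose and 0.765 FPKM in liver. *Tnni1*, slow troponin I, was at 2.93 FPKM in small intestine, 1.29 FPKM in brain, 1.09 FPKM in TA muscle, 0.908 FPKM in white adipose, 0.858 FPKM in brown adipose and 0.256 FPKM in heart, and was listed at 0 in liver. Which tissue came first depended on the scaling for these genes: *Tnnt1* was highest in TA muscle after median-ratio scaling and in heart after quantile normalization, and *Tnni1* was highest in TA muscle after quantile normalization. The other 6 members kept their highest tissue under TPM, median-ratio and quantile scaling. Their next tissue was less fixed: under TPM it was white adipose for *Tnnc2* and *Tnnt3* and brain for *Tnnc1*.

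The fast form therefore took nearly all of each subunit in TA muscle, with 99.97% of troponin C, 99.7% of troponin I and 99.7% of troponin T. In heart the corresponding shares were 99.6% *Tnnc1*, 99.9% *Tnni3* and 99.8% *Tnnt2*. The fat libraries of the 7-tissue table resembled TA muscle in this respect, with fast shares of 97.3%, 87.9% and 86.4% of troponin C, I and T in white adipose and 98.6%, 96.9% and 94.1% in brown adipose. Brain was mixed in troponin T, with 43.3% *Tnnt3*, 32.5% *Tnnt1* and 24.2% *Tnnt2*, and in troponin I, with 47.9% *Tnni2*. *Tnnc2* held 81.9% of troponin C in brain and, at a sum of 2.55 FPKM, 84.3% in small intestine. A high fast share of troponin C was thus not particular to TA muscle and fat.

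The genes whose tissue pattern lay closest to each member, by Pearson's r of log2(FPKM + 1) over the same 7 libraries among 10413 genes with at least 10 FPKM in any tissue, were mostly sarcomere genes for the fast and cardiac members. *Tnnc2* was closest to *Tnnt3* (r = 0.999), *Myh4* (r = 0.990), the myosin heavy chain of the fastest fibres, and *Tnni2* (r = 0.979). *Tnni2* was closest to *Myh4*, *Atp2a1*, the calcium pump of fast fibres, and *Actn3*, the alpha-actinin of fast fibres (r from 0.992 to 0.995). *Tnnc1* was closest to *Mylk3*, *Mybpc3* and *Myl2*, and *Tnnt2* to *Tnni3*, *Usp28* and *Myh6*, the alpha-myosin heavy chain of the heart (r from 0.961 to 0.978). *Tnni3* was closest to *Gm45670*, *Myh6* and *Ankrd1* (r from 0.990 to 0.991). *Tnni1* stayed under the 10 FPKM that the comparison required. With 7 points, of which 1 tissue carries most of the range, these values describe the order and no more.

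All 21 markers fixed for the 7 tissues were highest in their labelled tissue, so the labels matched the libraries. The FPKM of a library summed to between 364710 and 720852. Read numbers were not used here, and the spacing of the lowest FPKM values gave a relative depth between 0.916 and 1.05 of heart for the 7 tissues and between 0.892 and 1.11 of the first WT library for BAT. For iWAT the depth is unknown. *Ostn*, which the transgene should raise, was listed at 0 in all 3 WT libraries of BAT and was at 37.9, 31.6 and 30.3 FPKM in the MCK-Musclin libraries. In iWAT *Ostn* was at 0, 0 and 0.225 FPKM in the WT libraries and at 0, 5.17 and 4.21 FPKM in the MCK-Musclin libraries, so the library labelled MCK-Musclin 1 does not show the transgene. *Ostn* thus does not check the label of this library, in which the fast troponin genes were also low. The ratio of *Ostn* to *Tnnt3* was 0.113, 0.220 and 0.119 in the MCK-Musclin libraries of BAT and 0.161 and 0.0987 in iWAT MCK-Musclin libraries 2 and 3, against 0.000271 in WT TA muscle. These ratios set values of separately normalised tables side by side, and no muscle of MCK-Musclin mice is among the 19 libraries to compare with.

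In iWAT of cold-exposed mice the fast troponin genes varied widely between libraries of one genotype, and no difference between MCK-Musclin and WT mice stood out from that spread. *Tnnc2* was at 1.96, 278 and 1829 FPKM in WT libraries 1, 2 and 3 and at 3.09, 55.6 and 74.3 FPKM in MCK-Musclin libraries 1, 2 and 3. *Tnni2* was at 1.08, 89.3 and 406 FPKM in the WT and at 2.02, 15.1 and 17.0 FPKM in the MCK-Musclin libraries. *Tnnt3* was at 2.55, 207 and 968 FPKM in the WT and at 2.46, 32.1 and 42.6 FPKM in the MCK-Musclin libraries. In each of these genes the highest 2 libraries were WT 3 and WT 2 and the groups overlapped through WT 1, which lay below MCK-Musclin 2 and 3.

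**Figure D2:**
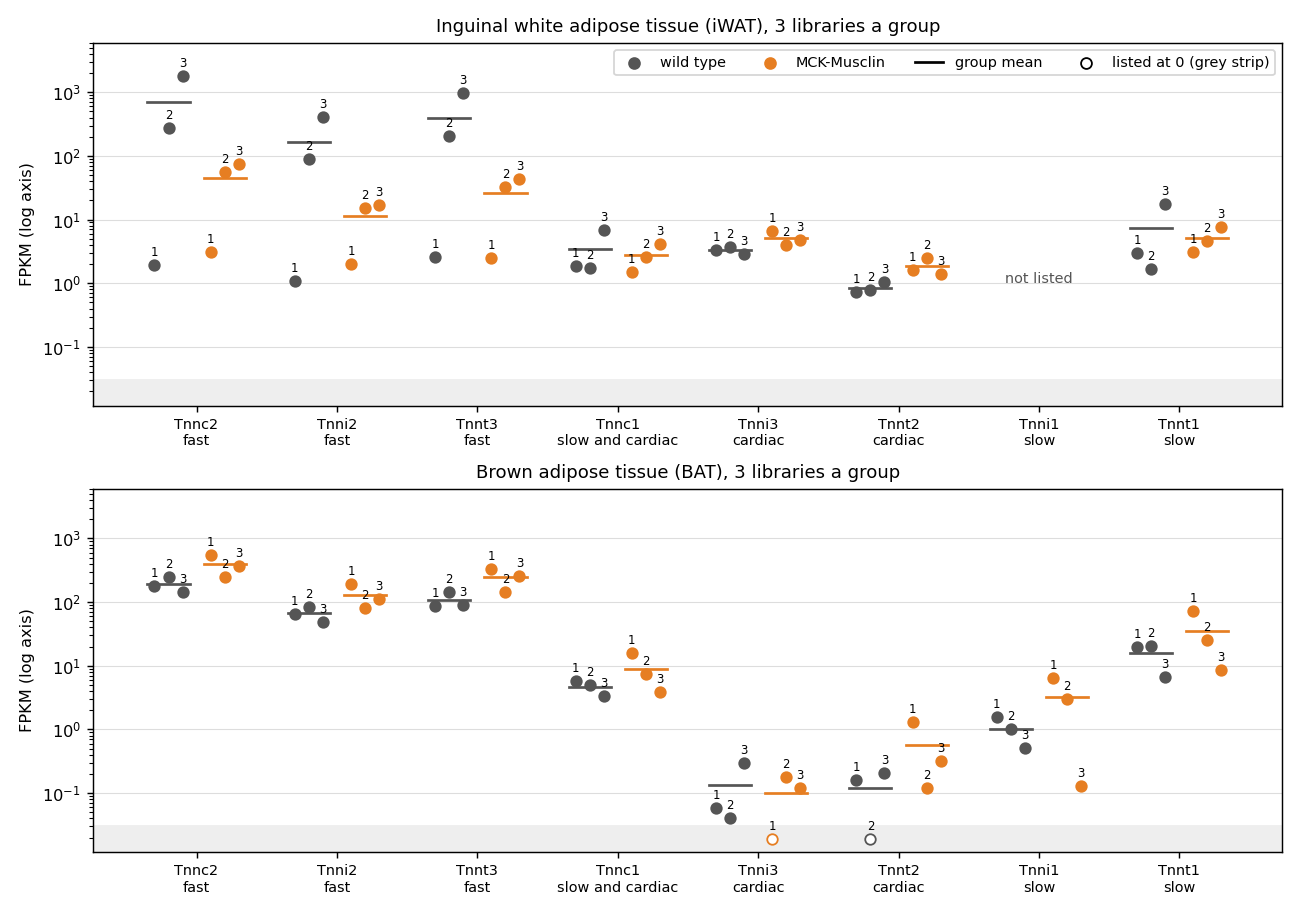
FPKM of the 8 troponin genes (log axis) in iWAT (top) and BAT (bottom), 1 point per library numbered by replicate, WT in grey and MCK-Musclin in orange, with a line at the mean of each group of 3. In iWAT the fast genes of library 1 of both genotypes lie near 1 to 3 FPKM while WT library 3 reaches 406 to 1829 FPKM, and in BAT the fast genes of all 6 libraries stay between 49.2 and 552 FPKM.

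On the log2(FPKM + 1) scale, *Tnnc2* differed by -2.15 (SE 2.27), *Tnni2* by -2.15 (SE 1.79) and *Tnnt3* by -2.39 (SE 1.98) between MCK-Musclin and WT libraries, with adjusted p = 0.674, 0.582 and 0.582 (limma, Benjamini-Hochberg over 12197 genes, n = 3 against 3). The 95% interval of *Tnnt3* ran from -7.04 to 2.26 and that of *Tnnc2* from -7.46 to 3.17, so neither direction is set by these libraries. The size depended on which library was left out: without WT 1 the differences were -4.78, -4.33 and -4.72 with adjusted p = 0.163, 0.0911 and 0.128, and without WT 3 they were -0.15, -0.52 and -0.67. Without MCK-Musclin 1, the library whose label *Ostn* does not check, they were -0.81, -1.32 and -1.24. Without WT 1 all 3 fast genes passed the cutoff of the study (unadjusted p under 0.05 and a log2 fold change over 0.5). In that fit 1.74% of genes tested passed it in that direction, and with all libraries none of the 3 fast genes did. The study applied this cutoff to DESeq2 results, whereas here it was applied to the limma fit throughout. The shares of genes past it are therefore not those of the study.

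The ratios between the fast genes varied far less from library to library than their levels. *Tnnt3* was 2.36, 2.32 and 2.38 times *Tnni2* in the WT libraries and 1.22, 2.13 and 2.50 times in the MCK-Musclin libraries, beside 2.44 times in TA muscle. *Tnnc2* was 1.82, 3.11 and 4.50 times *Tnni2* in the WT libraries and 1.53, 3.69 and 4.37 times in the MCK-Musclin libraries, beside 4.94 times in TA muscle. Set against TA muscle, *Tnnc2*, *Tnni2* and *Tnnt3* of WT library 3 stood at 3.30%, 3.63% and 3.53% of the level of that tissue, and those of WT library 2 at 0.501%, 0.797% and 0.756%. In WT library 1 they stood at 0.00354%, 0.00964% and 0.00930%. The iWAT and TA muscle values were normalised separately, so these percentages are rough. *Ube2c*, which overlaps *Tnnc2*, was at 3.44 and 4.55 FPKM in WT and MCK-Musclin library 1, above the *Tnnc2* level of these 2 libraries, so their *Tnnc2* values and the ratios made from them are uncertain.

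Other genes of fast fibres moved with the fast troponins across the iWAT libraries. *Myh4* was at 0, 108 and 621 FPKM in the WT and at 0.276, 14.1 and 22.0 FPKM in the MCK-Musclin libraries. *Atp2a1* was at 0.0416, 33.7 and 138 FPKM in the WT and at 0.0434, 4.55 and 5.11 FPKM in the MCK-Musclin libraries. All 13 fast fibre genes that are not troponins were lower on average in MCK-Musclin libraries (median log2 fold change -1.91, against 0.06 over all genes), and 0 of 13 passed the adjusted threshold or the cutoff of the study. Their summed FPKM ran from 38.7 to 1656 in WT and from 34.6 to 99.9 in MCK-Musclin libraries. The lowest sums were those of library 1 of both genotypes, in which 11 of the 13 genes were under 1 FPKM and *Ckm* was listed at 0. In bulk tissue, fewer cells of a type and less RNA per cell cannot be told apart, and the part of muscle fibres in the fast troponin levels was not tested. Brown fat markers (*Ucp1*, *Cidea*, *Cox7a1*) also differed between these libraries, with a sum of 501, 784 and 969 FPKM in the WT and 558, 175 and 84.8 FPKM in the MCK-Musclin libraries. These sums overlapped, as WT 1 lay below MCK-Musclin 1. Of the markers 3 of 3 passed the cutoff of the study in the lower direction, as did 0.902% of all genes, and 0 passed the adjusted threshold.

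By the same measure over the 6 iWAT libraries, *Tnnc2* lay closest to *Myh4*, *Tnnt3* and *Smg8*, *Tnni2* to *Atp2a1*, *Pvalb* and *Trdn*, and *Tnnt3* to *Myh4*, *Tnnc2* and *Tnni2*. *Pvalb* and *Trdn* encode a calcium buffer of fast fibres and a protein of the calcium release complex. None of the 3 genes closest to *Tnnt1* (*Mllt11*, *St6gal1*, *Pllp*), to *Tnnc1* (*Pllp*, *Synpo*, *Dcun1d2*), to *Tnni3* (*Pqlc2*, *Tmem154*, *C2cd3*) or to *Tnnt2* (*Ngdn*, *Slc20a1*, *Fkbp15*) belonged to the fixed lists of striated muscle genes. These likenesses rest on 6 libraries and carry no test.

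The slow members followed the fast ones only in part across the iWAT libraries, with r of log2(FPKM + 1) over the 6 libraries from 0.548 to 0.580 for *Tnnt1* and from 0.703 to 0.740 for *Tnnc1* against the 3 fast genes, given as a description. *Tnnt1* was at 2.99, 1.68 and 17.4 FPKM in the WT and at 3.11, 4.64 and 7.76 FPKM in the MCK-Musclin libraries. WT library 2, second in all 3 fast genes, was thus the lowest of the 6 in *Tnnt1*. *Tnnc1* was at 1.83, 1.74 and 6.80 FPKM in the WT and at 1.52, 2.59 and 4.10 FPKM in the MCK-Musclin libraries, and WT library 3 was again the highest. *Myh7*, the myosin heavy chain of slow fibres, was at 0.0435, 0.285 and 10.5 FPKM in the WT and at 2.62, 6.84 and 5.47 FPKM in the MCK-Musclin libraries. The groups overlapped in each of these genes, and *Tnnt1* differed by 0.02 (SE 0.68, adjusted p = 0.993) and *Tnnc1* by -0.13 (SE 0.44, adjusted p = 0.909) on the log2 scale. *Tnnt1* changed sign under TPM, median-ratio and quantile scaling.

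**Figure D3:**
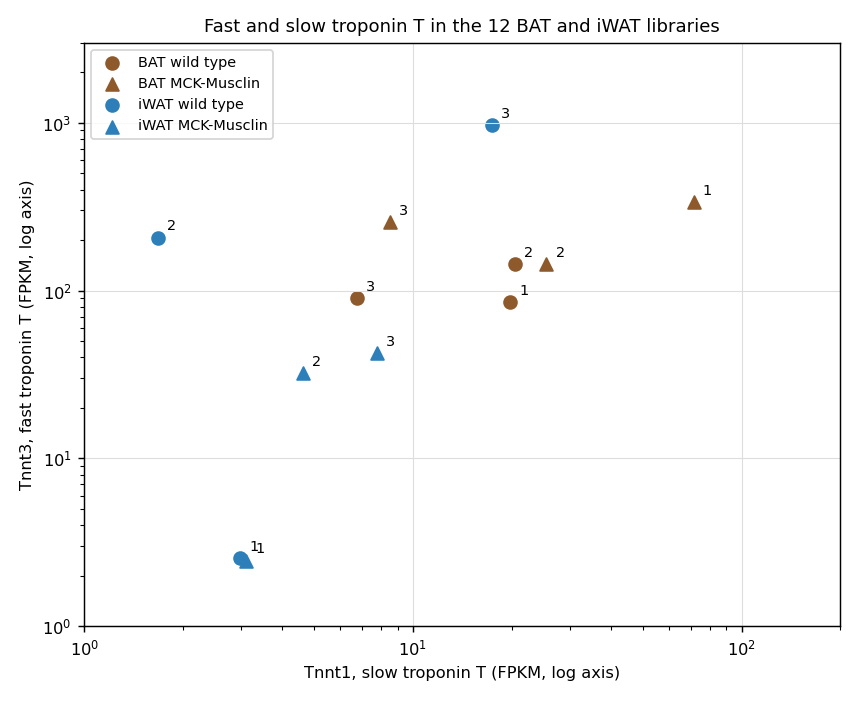
*Tnnt3*, fast troponin T, against *Tnnt1*, slow troponin T, in FPKM on log axes, for the 12 iWAT and BAT libraries, numbered by replicate, with circles for WT and triangles for MCK-Musclin and one colour per tissue. Library 1 of both iWAT genotypes sits at the bottom near 2.5 FPKM of *Tnnt3*, and iWAT WT library 2 combines 207 FPKM of *Tnnt3* with 1.68 FPKM of *Tnnt1*.

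Of the 7 members tested in iWAT, only the 2 cardiac ones, both at low levels, had groups that did not overlap. Such an order was common among all genes, as given below, so the count is not read as a trait of these members. *Tnnt2* was at 0.736, 0.771 and 1.04 FPKM in the WT and at 1.63, 2.51 and 1.40 FPKM in the MCK-Musclin libraries, a log2 difference of 0.61 (SE 0.17, adjusted p = 0.180, limma). *Tnni3* was at 3.34, 3.69 and 2.89 FPKM in the WT and at 6.62, 4.05 and 4.83 FPKM in the MCK-Musclin libraries, a log2 difference of 0.50 (SE 0.17, adjusted p = 0.221, limma). The groups did not overlap in either gene, with the MCK-Musclin values all above the WT values, as was the case for 17.9% of all genes tested, whereas 5.44% had them all below. By limma, 0 of the 7 members and 0 of the 12197 genes passed the adjusted threshold (0% called, smallest adjusted p = 0.0912), although 2012 genes had an unadjusted p under 0.05. *Tnnt2* and *Tnni3* were among these.

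Both cardiac members passed the cutoff of the study in the higher direction, with 5.04% of genes, and none of the 7 passed it in the lower direction, with 0.902%. The split of all genes moved with the scaling, from 615 higher and 110 lower as deposited to 429 higher and 184 lower after median-ratio scaling, and *Tnni3*, at a log2 difference just over 0.5, missed the cutoff after TPM, median-ratio and quantile scaling. *Tnni3* also missed it without WT 3 (0.43) and without MCK-Musclin 1 (0.34), the library whose label *Ostn* does not check, and *Tnnt2* missed it without MCK-Musclin 2 (0.45). Without WT 3, *Tnnt1* passed it (0.85, adjusted p = 0.382). *Dnaaf3*, whose exons overlap those of *Tnni3*, was at 1.58, 0.908 and 0.858 FPKM in the WT and at 2.81, 1.65 and 2.01 FPKM in the MCK-Musclin libraries, with groups that did not overlap either, and its part in the *Tnni3* values was not tested. Of 9 other cardiac genes 3 are listed for iWAT and 1 passed the filter on low values, and *Myh6*, *Nppa* and *Actc1*, the markers fixed for heart, are not among those listed.

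The share of the fast form within a subunit changed with the level of fast troponin in iWAT. The fast level is itself part of this share, so the change follows in part from the arithmetic. In WT libraries 1, 2 and 3 *Tnnc2* held 51.7%, 99.4% and 99.6% of troponin C, *Tnni2* held 24.4%, 96.0% and 99.3% of troponin I, and *Tnnt3* held 40.6%, 98.8% and 98.1% of troponin T. In MCK-Musclin libraries 1, 2 and 3 the shares of *Tnnt3* were 34.2%, 81.8% and 82.3% of troponin T, and those of *Tnni2* were 23.3%, 78.8% and 77.9% of troponin I, with *Tnni1* not listed. In the libraries with the least fast troponin, *Tnni3* and *Tnnt1* were the largest parts of their subunits, at 75.6% and 47.7% in WT library 1 and 76.7% and 43.2% in MCK-Musclin library 1.

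**Figure D4:**
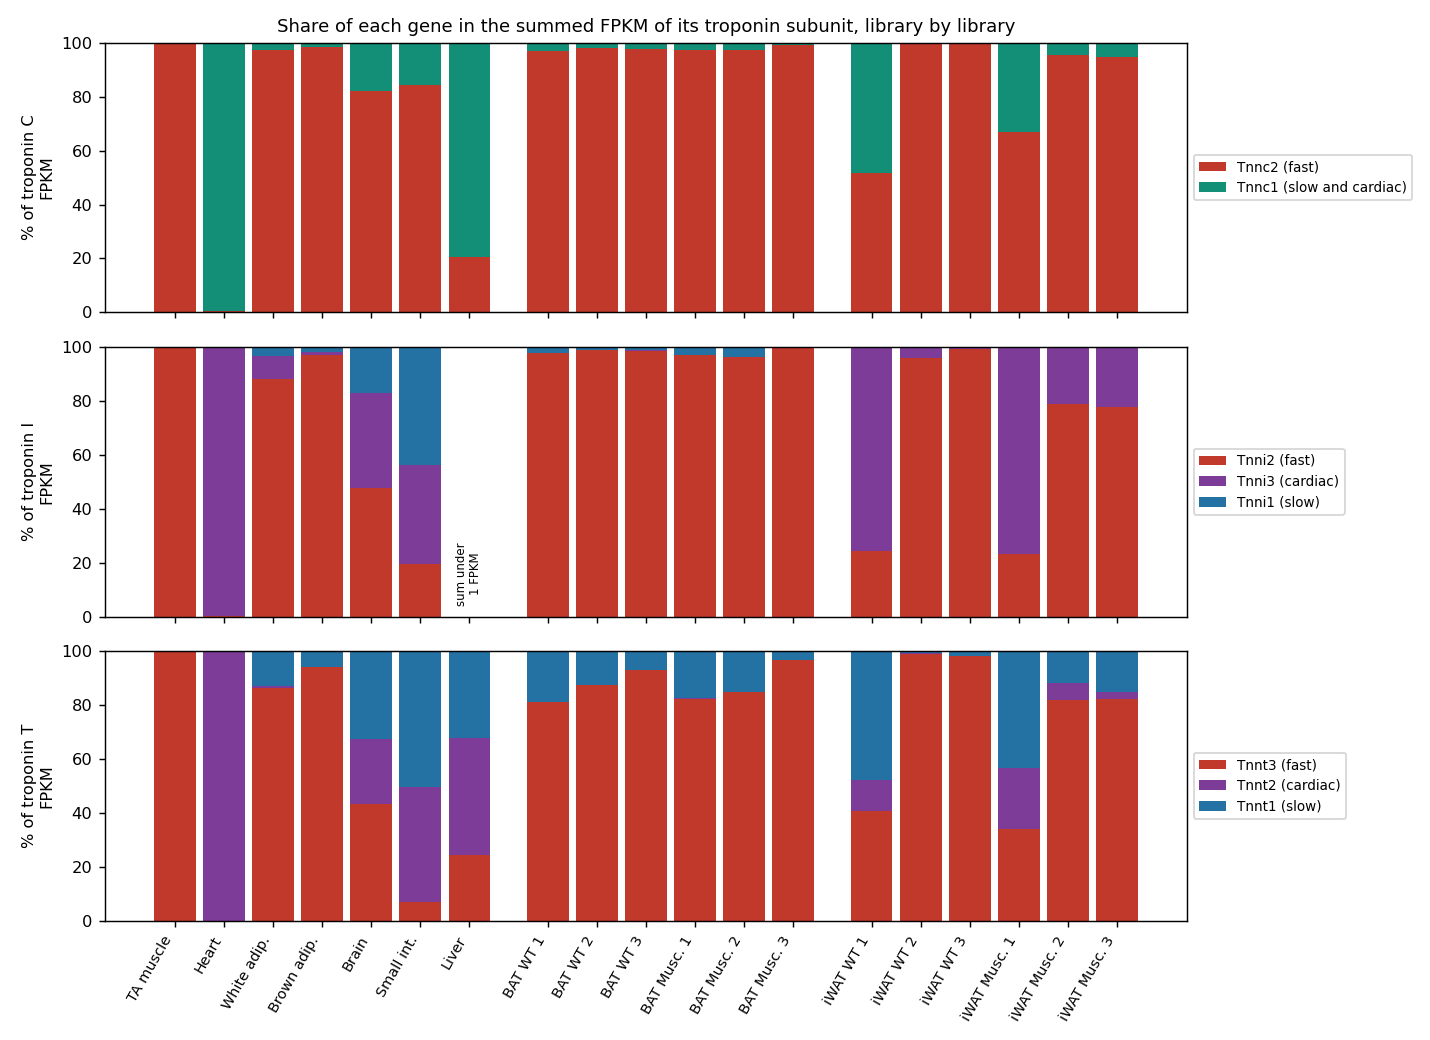
Share of each gene in the summed FPKM of troponin C (top), troponin I (middle) and troponin T (bottom) for each of the 19 libraries, as stacked bars that start at 0 and end at 100%. The fast genes (red) fill TA muscle and most of the BAT bars, the cardiac genes fill heart, and library 1 of both iWAT genotypes is mixed, while liver has under 1 FPKM of troponin I and no bar.

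In BAT of cold-exposed mice the fast troponin genes were present in every library and were higher on average in MCK-Musclin mice, with overlapping groups. *Tnnc2* was at 180, 250.2 and 145 FPKM in WT libraries 1, 2 and 3 and at 552, 247 and 374 FPKM in MCK-Musclin libraries 1, 2 and 3. *Tnni2* was at 65.0, 84.7 and 49.2 FPKM in the WT and at 194, 80.9 and 110 FPKM in the MCK-Musclin libraries. *Tnnt3* was at 85.7, 144 and 90.0 FPKM in the WT and at 337, 144 and 256 FPKM in the MCK-Musclin libraries. MCK-Musclin 1 was the highest and MCK-Musclin 3 the second highest library for each of the fast genes, and MCK-Musclin 2 lay beside WT 2.

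The log2 differences were 0.99 (SE 0.30) for *Tnnc2*, 0.88 (SE 0.32) for *Tnni2* and 1.15 (SE 0.32) for *Tnnt3*, with unadjusted p = 0.0127, 0.0269 and 0.00810 and adjusted p = 0.968, 0.968 and 0.929 (limma, 10893 genes tested). These 3 of 6 members tested passed the cutoff of the study in BAT (unadjusted p under 0.05 and a log2 fold change over 0.3), a cutoff passed by 1.85% of genes in that direction and by 2.15% in the other. By adjusted p, 0 of 6 members were called, against 1 of 10893 genes (0.00918%). The groups overlapped in all 6, whereas the MCK-Musclin values were all above the WT values for 4.38% of genes and all below for 5.63%. Without WT 1, WT 3 or MCK-Musclin 1 the count past the cutoff was 2, as *Tnni2* no longer passed (1.71%, 1.76% and 1.54% of genes passed it in that direction). Without MCK-Musclin 3 it was 6 (2.39% of genes).

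**Figure D5:**
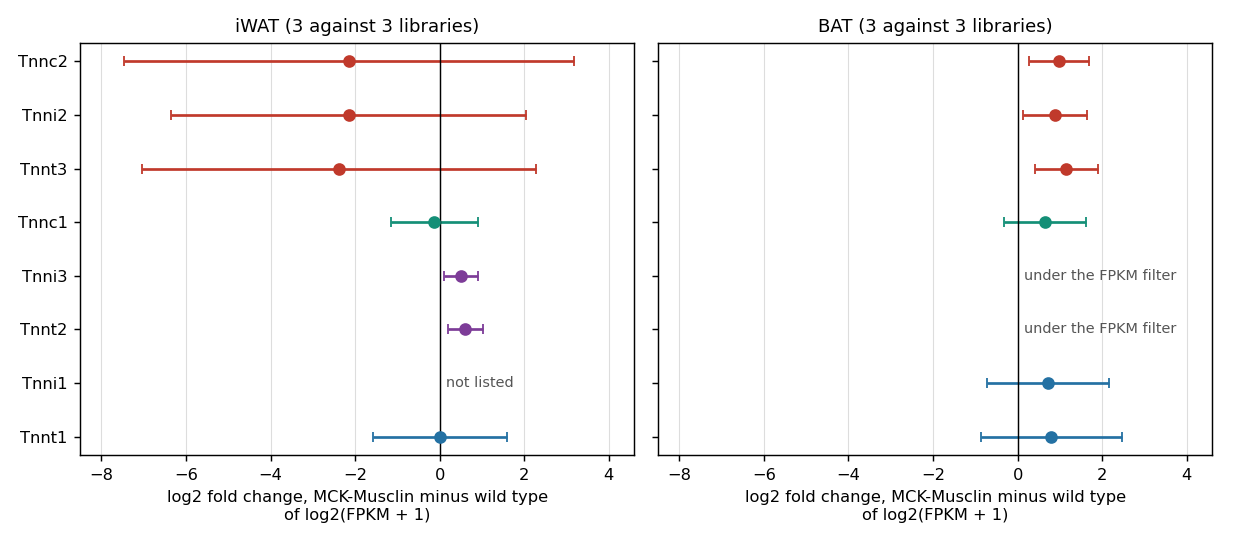
Log2 fold change of each troponin gene, MCK-Musclin minus WT on log2(FPKM + 1), in iWAT (left) and BAT (right), as points with the 95% interval of the limma fit, 3 libraries against 3. The intervals of the fast genes span several log2 units on both sides of 0 in iWAT, and in BAT those of *Tnnc2*, *Tnni2* and *Tnnt3* lie above 0 before adjustment for the number of genes.

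The slow members of BAT were highest in the same MCK-Musclin library but low in another. *Tnnt1* was at 19.8, 20.5 and 6.77 FPKM in the WT and at 71.5, 25.5 and 8.51 FPKM in the MCK-Musclin libraries. *Tnni1* was at 1.56, 1.00 and 0.509 FPKM in the WT and at 6.39, 3.06 and 0.131 FPKM in the MCK-Musclin libraries. *Tnnc1* was at 5.82, 5.01 and 3.35 FPKM in the WT and at 15.8, 7.31 and 3.85 FPKM in the MCK-Musclin libraries. MCK-Musclin 3, second in every fast gene, was the lowest of the 6 libraries in *Tnni1* and the second lowest in *Tnnt1* and *Tnnc1*. The ratio of *Tnnt3* to *Tnnt1* was therefore 30.1 in MCK-Musclin 3 against 4.71 and 5.64 in MCK-Musclin 1 and 2, and 4.34, 7.02 and 13.3 in the WT libraries.

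The log2 differences of the slow members were 0.80 (SE 0.72) for *Tnnt1*, 0.71 (SE 0.62) for *Tnni1* and 0.64 (SE 0.42) for *Tnnc1*, each with adjusted p = 0.968 (limma), and the 95% intervals ran from -0.87 to 2.47, -0.73 to 2.15 and -0.33 to 1.62. They rested on single libraries: without MCK-Musclin 1 the differences were 0.07, 0.11 and 0.17, and without MCK-Musclin 3 they were 1.53, 1.47 and 1.07. *Tnni3* (0 to 0.298 FPKM) and *Tnnt2* (0 to 1.30 FPKM) were under the filter of a mean FPKM of 1 and were not tested, and the highest *Tnnt2* value was again that of MCK-Musclin 1.

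Genes of the sarcomere outside the troponin family moved with the troponins in BAT. All 13 fast fibre genes were higher on average in MCK-Musclin libraries, with a median log2 fold change of 0.82 against -0.01 over all genes. Of these, 11 of 13 passed the cutoff of the study, as did 1.85% of all genes in that direction, and 0 passed the adjusted threshold. *Myh4* was at 91.8, 125 and 73.5 FPKM in the WT and at 221, 130.4 and 165 FPKM in the MCK-Musclin libraries, without overlap between genotypes. Of 11 thin filament partners of troponin, such as actin, the tropomyosins and nebulin, 9 were tested, 9 were higher on average and 4 passed the cutoff. *Acta1*, skeletal muscle actin, was at 46.3, 82.3 and 51.9 FPKM in the WT and at 223, 88.2 and 106 FPKM in the MCK-Musclin libraries. All 8 slow fibre genes tested were higher on average and 0 passed the cutoff. This slow list is not particular to muscle in these data. Across the 7 tissues it summed to 9159 FPKM in heart and 162 FPKM in TA muscle. It reached 342 FPKM in small intestine, 224 FPKM in brain, 223 FPKM in white adipose, 116 FPKM in brown adipose and 89.7 FPKM in liver. The summed FPKM of the 13 fast fibre genes ran from 266 to 374 in WT and from 424 to 837 in MCK-Musclin libraries, with none listed at 0, and the part of muscle fibres in the troponin levels was not tested.

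The same lists gave other counts in iWAT. Of the thin filament partners 9 were tested there, 7 were lower and 2 higher on average in MCK-Musclin libraries, and 0 passed the cutoff. *Acta1* was at 1.11, 36.9 and 311 FPKM in the WT and at 1.48, 15.2 and 10.2 FPKM in the MCK-Musclin libraries. *Tpm2*, a tropomyosin also made outside striated muscle, kept to between 59.5 and 241 FPKM in all 6 libraries. Of 8 slow fibre genes 4 were tested, 2 higher and 2 lower on average, and 0 passed. Since the iWAT and BAT tables were normalised separately and come from libraries of separate tissues, the difference between the fast troponin changes of iWAT and BAT was not tested.

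Levels of fast troponin in BAT were even beside those of iWAT. Between the highest and the lowest of the 6 libraries *Tnnc2* differed by 3.81-fold in BAT and by 933-fold in iWAT, *Tnni2* by 3.94-fold and 376-fold, and *Tnnt3* by 3.93-fold and 393-fold. The fast shares of BAT stayed high in every library, from 96.9% to 99.0% of troponin C, from 96.2% to 99.8% of troponin I and from 81.1% to 96.7% of troponin T. *Tnnt3* was 1.32, 1.70 and 1.83 times *Tnni2* in the WT and 1.74, 1.78 and 2.32 times in the MCK-Musclin libraries, all under the 2.44 times of TA muscle. The brown fat markers summed to between 7712 and 9295 FPKM in the 6 BAT libraries, and general adipocyte genes to between 6706 and 7673 FPKM, so the labelled tissue was plain in each library whatever its troponin level.

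Genes of red blood cells were also higher on average in the MCK-Musclin libraries of BAT. *Hba-a1*, *Hbb-bs* and *Alas2* summed to between 1058 and 1368 FPKM in the WT and between 1564 and 1674 FPKM in the MCK-Musclin libraries. Of the 3 genes 2 passed the cutoff of the study in the higher direction, as did 1.85% of all genes, and 0 passed the adjusted threshold. In iWAT the same sum ran from 913 to 1959 FPKM in the WT and from 977 to 1743 FPKM in the MCK-Musclin libraries, and was highest in WT 3, the library with the most fast troponin. Their part in the troponin values was not tested. The genes listed for smooth muscle are not particular to it in these data. Across the 7 tissues they summed to 952 FPKM in TA muscle and 643 FPKM in heart, above the 526 FPKM of small intestine. They summed to between 75.0 and 83.0 FPKM in the WT and between 70.8 and 113 FPKM in the MCK-Musclin libraries of BAT. In iWAT they summed to 149, 231 and 301 FPKM in the WT and to 172, 265 and 225 FPKM in the MCK-Musclin libraries, in the same order as the fast troponin genes within the WT libraries, and their part in the troponin values was not tested. By the cutoff of the study, 0 of 6 passed in either tissue.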

How the data were processed

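RNA was made into poly(A)-selected, randomly primed libraries, from kit-isolated RNA for white fat and from TRIzol-isolated RNA for the other tissues. The authors filtered reads by fastp and by Bowtie2 and mapped those kept to GRCm38 by HISAT2 2.1.0 with no strand setting. The deposited values are FPKM per gene and library, from StringTie per the study's methods, whereas the submitters' processing notes name Cuffdiff, and which of them gave these values is not settled. The 7-tissue and BAT files each hold 287 lines that repeat a gene with the same FPKM, and each gene was used once. The iWAT table further holds fold changes, p-values, FDR and group means of the authors' own DESeq2 comparison, all left unused. No per-sample column was left out. The filter that selected the 13756 genes of the iWAT table is not given in the sources used here.

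WT and MCK-Musclin libraries were compared within each table by limma 3.58.1 (R 4.3.3; lmFit, eBayes with a trend) on log2(FPKM + 1) for genes whose mean FPKM reached 1, with Benjamini-Hochberg adjustment over the table. A fold change on this scale understates that of low genes. The numbers of reads are unknown, so count tests were not run, and p-values measure the spread between these libraries only. Positions and exons are from GENCODE for GRCm38, promoters from RefSeq. Shares were given for subunits with at least 1 FPKM in all. The limma step was checked on simulated data. Alternatives were other pseudocounts (0.1, 0.01), filters, scalings, eBayes settings, library weights, a replicate block, and leaving out each library. Other genes were named if they ranked among the 3 closest to a member or belonged to fixed lists of thin filament, fast, slow, cardiac, smooth muscle, myogenic regulator, adipocyte, erythrocyte and tissue marker genes, and *Ostn* and genes overlapping or flanking a member were added. Some results, among them the genes closest to *Tnnt1* over the 7 tissues, are not reported here. The members and lists were chosen with earlier results of these data known.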

Additional observations from a re-analysis of the deposited data

How the results depend on the processing

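No member passed an adjusted p of 0.05 in iWAT or BAT under any of the 17 alternatives. In iWAT the number of members past the cutoff of the study in the higher direction was 2, with 5.04% of all genes. It became 0 with a mean FPKM of at least 5 (5.22% of genes), which leaves *Tnnt2*, *Tnni3* and *Tnnc1* untested. After rescaling to TPM, median-ratio scaling or quantile normalization it was 1, with 3.97%, 3.52% and 3.49% of genes. Leaving out each library in turn gave between 1 and 2, with 4.32% to 6.91% of genes. The number in the lower direction was 0, with 0.902% of genes, and ran from 0 to 3 with 1 library left out (3 without WT 1, with 1.74% of genes). With the replicate number as a block it was 1 (*Tnnt3*), with 1.26% of genes. In BAT the number higher was 3, with 1.85% of genes, and ran from 2 to 6 with 1 library left out, with 1.54% to 2.57% of genes. It was 6 without MCK-Musclin 3 (2.39% of genes), and the filter at a mean FPKM of 5 left *Tnni1* untested. The difference of *Tnnt1* in iWAT changed sign to -0.027 with TPM, -0.048 with median-ratio scaling and -0.057 with quantile normalization, and ran from -0.54 to 0.85 with 1 library left out. That of *Tnnc1* in iWAT ran from -0.39 to 0.36. The causes were not tested. No other member reversed, and the counts of members highest in TA muscle (3 to 4), highest in heart (3 to 4) and enriched in striated muscle (6) held within these ranges under their alternatives.

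Replicate numbers are shared between the genotypes, and correlations of the deviations of same-numbered libraries were 0.235, 0.0615 and 0.107 in iWAT, all above 0 but not all over 0.1, and -0.0951, -0.00463 and 0.00937 in BAT. In iWAT each WT library correlated best with its own number, as a hint from the data, but MCK-Musclin 2 correlated best with WT 3 (0.0702), so the numbers were not taken as pairs. The block moved the number past the cutoff in BAT from 3 to 4, with 1.96% of all genes in that higher direction, and the count by adjusted p in neither tissue. Depth is unknown for iWAT, so that values near 0 carry an error that these tables do not give.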

Other observations

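Transcription factors of muscle and heart (*Myod1*, *Myog*, *Myf5*, *Myf6*, *Mef2a*, *Mef2c*, *Mef2d*, *Gata4*, *Nkx2-5*, *Tbx5*, *Hand2*) summed to 342 FPKM in TA muscle and 202 FPKM in heart, and to between 29.6 and 196 FPKM in the other 5 tissues. In BAT 4 of these 11 genes passed the filter on low values, and in iWAT 4 are listed and were tested. None passed the cutoff of the study in either tissue, and the median log2 fold change of those tested was 0.06 in iWAT and 0.0037 in BAT. General adipocyte genes were lower on average in MCK-Musclin libraries for 5 of 5 genes in both tissues. Their median log2 fold change was -0.14 in iWAT and -0.07 in BAT, with 0 past the cutoff in either. Over all genes tested, 61.3% were higher in iWAT and 47.7% in BAT, with medians of 0.06 and -0.008.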
